A study of Homo sapiens with 12 samples.

Results

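THP-1 and MOLM-13 are both human cell lines from acute monocytic leukemia, and the comparison described here sets their untreated states against each other. It rests on 6 of the 12 mRNA-seq libraries of the study, namely the 3 THP-1 control and the 3 MOLM-13 control libraries. The control cells of both lines had received DMSO, the solvent of the tested compound, for 48 h, and no library of compound-treated cells was used. The MOLM-13 line carries an internal tandem duplication of FLT3, the THP-1 line has wild-type FLT3, and both carry a rearrangement of MLL. Each line is a single established line, so a difference between them is a difference between 2 cell lines and cannot be told apart from the many other ways in which the lines differ. The values are FPKM, which are fragments per kilobase of transcript scaled to the mapped fragments of the library. Genes with a mean of at least 1 FPKM in either line were compared, genes on the X and Y chromosomes were left out, and 10171 of the 20030 rows of the table remained. Of these genes, 8927 reached the minimum in both lines, 821 in THP-1 alone and 423 in MOLM-13 alone.

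The rearranged MLL protein in such leukemias is a fusion of the MLL histone methyltransferase with a partner protein, which keeps HOXA genes and their partner MEIS1 active in myeloid progenitors. FLT3 is a receptor tyrosine kinase of progenitor cells, and its internal tandem duplication makes it signal without ligand, with STAT5 among the factors it activates. MHC class II proteins present peptides to T cells, and in myeloid cells their genes are switched on through the coactivator CIITA.

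The libraries of each line were close to each other and far from those of the other line. Pearson correlations of log2(FPKM + 0.1) over the genes tested were 0.992 to 0.995 among MOLM-13 libraries, 0.991 to 0.994 among THP-1 libraries and 0.809 to 0.825 between the lines. No label says that the libraries of a line came from separate cultures, so the p-values measure the spread between these libraries, which may be technical. The total depth is unknown, since the table gives no counts. The commonest ratio between values under 0.1 FPKM put the second MOLM-13 library at 0.919 of the depth of the first. The myeloid identity of both lines was visible in the markers, with LYZ, CD68, CD33, CD4, SPI1, CEBPA and MPO above 5 FPKM in every library. CSF1R, another marker chosen for this, did not reach that level in every library. ITGAM and FCGR1A, also chosen, reached the minimum in at least 1 line. CD14, the endotoxin co-receptor of mature monocytes, had a mean of 0.144 FPKM in MOLM-13 and 0.548 FPKM in THP-1, both below the minimum. Of 16 lymphoid markers 13 were below the minimum, and so were 13 of 15 erythroid and megakaryocyte markers. In such bulk samples, fewer cells of a type and less RNA per cell cannot be told apart.

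The lines differed in a large part of the transcriptome. A gene was called when limma gave a Benjamini-Hochberg adjusted p under 0.05 and the log2 difference was at least 0.58 in size. By this rule 4092 genes (40.2%) were called, 2179 (21.4%) higher in THP-1 and 1913 (18.8%) higher in MOLM-13. Among the 8927 genes of at least 1 FPKM in both lines, 2963 (33.2%) were called, 1410 (15.8%) higher in THP-1 and 1553 (17.4%) higher in MOLM-13. A gene that reached the minimum in 1 line alone had to differ, and 93.7% of the THP-1 genes and 85.1% of the MOLM-13 genes of that kind were called. The libraries of the lines did not overlap for 76% of all genes tested. The median log2 difference, THP-1 minus MOLM-13, was 0.04 over all genes tested and 0.0037 over those of at least 1 FPKM in both lines. Very large differences were more often in the THP-1 direction, with 97 genes (0.954%) higher in THP-1 and 16 (0.157%) higher in MOLM-13 by a log2 difference of at least 5. Among genes present in both lines the counts past a log2 difference of 2 were 106 (1.19%) higher in THP-1 and 100 (1.12%) higher in MOLM-13.

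**Figure D1:**
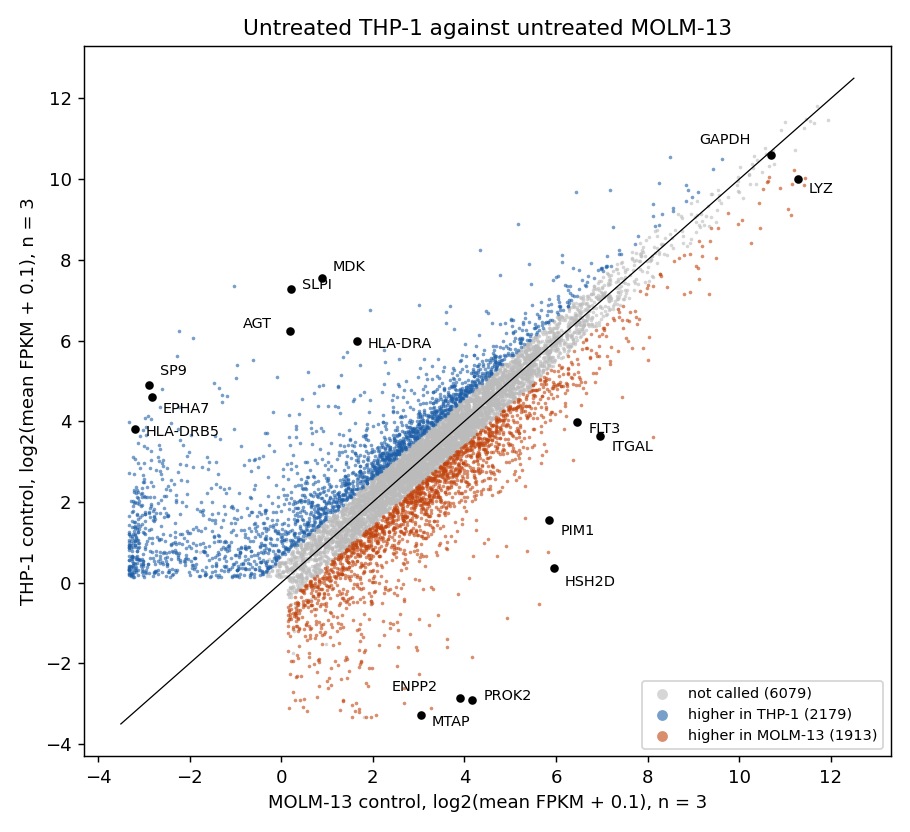
Mean expression of each tested gene in MOLM-13 (x axis) and THP-1 (y axis) control libraries, both as log2 of the mean FPKM plus 0.1 with n = 3 libraries per line; blue points are the 2179 genes called higher in THP-1, orange points the 1913 called higher in MOLM-13, grey points the rest and black points the genes with a label. The column of blue points at the left edge holds genes near 0 in MOLM-13, and GAPDH and LYZ mark the upper end of the range in both lines.

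Some genes were present in 1 line and all but missing from the other. In MOLM-13, 320 of the genes tested had a mean under 0.1 FPKM and 28 were listed at 0 in all 3 libraries, while in THP-1 the numbers were 37 and 4. The highest of those near 0 in MOLM-13 was SP9, a zinc finger transcription factor best known from developing brain and limb, with 28.9, 30.9 and 28.8 FPKM in the THP-1 libraries and 0, 0.105 and 0 FPKM in the MOLM-13 libraries. EPHA7, an ephrin receptor, was 25.2, 24.4 and 23.5 FPKM in THP-1 and at most 0.0874 FPKM in MOLM-13. PROSER1 had a mean of 27.9 FPKM (SD 0.274) in THP-1 against 0.0657 FPKM in MOLM-13. The others of the 10 highest were FBN2, which encodes an extracellular fibrillin, ADGRL2, an adhesion receptor, MARCKS, an actin-linked substrate of protein kinase C, BHLHE22, the retinoid-binding protein gene CRABP1, MFAP4 and the desmosomal cadherin gene DSG2. Their THP-1 means lay between 14.4 FPKM (DSG2) and 20.2 FPKM (FBN2), and CRABP1 was listed at 0 in all MOLM-13 libraries. Several of these genes are known from epithelium or nervous tissue rather than from blood.

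In the other direction, PROK2, which encodes a secreted chemotactic peptide, was 18.7, 17.1 and 18.0 FPKM in MOLM-13 and 0.0331, 0.0317 and 0.0356 FPKM in THP-1. ENPP2, which encodes the lysophospholipase autotaxin, had a mean of 14.8 FPKM (SD 5.16) in MOLM-13 and 0.0377 FPKM in THP-1. ZFP57, a factor that maintains genomic imprints, had 9.56 FPKM (SD 0.219) and 0.0159 FPKM. The remaining genes of the 10 highest were MTAP, CLECL1, ELOVL6, KLHL9, ALOX12, EIF4E3 and IGSF10, from 8.14 FPKM (MTAP) down to 3.53 FPKM (IGSF10) in MOLM-13. ALOX12, the platelet-type lipoxygenase, was listed at 0 in all THP-1 libraries and varied among the MOLM-13 libraries, with 1.96, 5.29 and 4.17 FPKM. PROK2 and EIF4E3 lie next to each other on chromosome 3 (71771655 to 71785148 and 71659363 to 71754773, GRCh38), and MTAP and KLHL9 both lie on the short arm of chromosome 9.

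Among genes of at least 1 FPKM in both lines, the largest difference in the THP-1 direction was in SLPI. SLPI, a leukocyte protease inhibitor, was 184, 157 and 124 FPKM in THP-1 and 0.804, 1.52 and 0.853 FPKM in MOLM-13, 146-fold higher (log2 difference 7.10 ± 0.23 SE, limma, adjusted p = 4.72e-08). MDK, which encodes the growth factor midkine, was 153, 206 and 201 FPKM against 1.54, 1.76 and 1.97 FPKM, 106-fold higher. AGT, the gene of angiotensinogen, was 65.9, 74.6 and 83.8 FPKM against 1.16, 0.864 and 1.08 FPKM. For these 3 genes no THP-1 library came near a MOLM-13 library, and the rule that chose them required no overlap. APP, the amyloid precursor gene, was 29-fold higher, and ALDH2, the mitochondrial aldehyde dehydrogenase that clears acetaldehyde, was 26.7-fold higher. The rest of the 10 were HLA-DRA, the exonuclease gene EXO5, the basement membrane gene NID1, the glycophorin gene GYPC and the serpin gene SERPINF1, from 20.7-fold (HLA-DRA) to 17.3-fold (GYPC).

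In the MOLM-13 direction the largest difference was in HSH2D, a signalling adaptor of hematopoietic cells, with 51.7, 65.3 and 67.6 FPKM in MOLM-13 and 1.48, 1.40 and 0.700 FPKM in THP-1, 51.5-fold higher. CST7, the gene of the leukocyte cystatin F, was 35.9-fold higher but spread widely in THP-1, where its libraries had 3.13, 1.14 and 0.482 FPKM. Others with large differences were the ribonuclease gene RNASE6 (25.3-fold), the granule protease gene PRSS57 (22.8-fold), the kinase gene PIM1 (20.4-fold), THEM6 (17.5-fold), TNFRSF10B, the TRAIL receptor DR5 (13.6-fold), the phosphatase gene PTP4A3 (12.1-fold) and TRIM16 (11.3-fold). TNFRSF10B was 37.1, 41.1 and 41.3 FPKM in MOLM-13 and 2.65, 3.11 and 3.01 FPKM in THP-1. THEM6, TNFRSF10B and PTP4A3 lie on chromosome 8.

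Genes of apoptosis and the cell cycle went both ways. Of 13 BCL2 family genes present in both lines, 4 were higher in MOLM-13 and 1 higher in THP-1. Among all genes of that level 33.2% were called, 17.4% higher in MOLM-13 and 15.8% higher in THP-1. BCL2, the antiapoptotic target of venetoclax, was 16.8, 21.5 and 19.9 FPKM in MOLM-13 and 9.05, 8.40 and 8.14 FPKM in THP-1, 2.27-fold higher. MCL1, another survival factor of myeloid cells, was 75.1, 76.9 and 76.8 FPKM in MOLM-13 and 113, 108 and 124 FPKM in THP-1, and its log2 difference of 0.59 was barely past the size for a call. It was 0.577 without the first MOLM-13 library and 0.53 without the third THP-1 library, and was then not called. MCL1 lies in a block of about 25 neighbouring genes of chromosome 1 whose median log2 difference was also 0.59. BAX, which permeabilizes mitochondria, was 75.6, 70.8 and 72.0 FPKM in MOLM-13 and 21.7, 22.5 and 20.8 FPKM in THP-1, and lies in a stretch of chromosome 19 where neighbouring genes were also higher in MOLM-13. BBC3, the gene of the BH3-only protein PUMA, was 6.16, 9.41 and 8.94 FPKM against 2.09, 1.86 and 1.6 FPKM. In both genes the lowest MOLM-13 library was above the highest THP-1 library. The libraries of the lines did not overlap for 76% of all genes tested. BMF was 2.93-fold higher in MOLM-13, while BAK1 (23.3 and 25 FPKM), BID (26.8 and 20.9 FPKM) and BCL2L1 (5 and 6.39 FPKM) were not called. Of 11 cell cycle inhibitors and G1 cyclins present in both lines, 3 were higher in each line and 5 not called. The shares of all genes of that level were 17.4% higher in MOLM-13 and 15.8% higher in THP-1. CDKN1A, the p21 inhibitor of cyclin-dependent kinases, was 100.2, 101 and 98.8 FPKM in MOLM-13 and 26.5, 25.9 and 25.4 FPKM in THP-1, 3.86-fold higher. CCND2, which reached 1 FPKM in MOLM-13 alone, had a mean of 3.65 FPKM (SD 1.07) there and 0.130 FPKM (SD 0.029) in THP-1. CCND3 was 83.9 and 74.4 FPKM and was not called. E2F1 was 2.31-fold and CDK4 1.61-fold higher in THP-1. CDKN2A and CDKN2B, the cell cycle inhibitor genes of the short arm of chromosome 9, were listed at 0 in all 6 libraries. Their neighbour MTAP was 9.15, 7.71 and 7.57 FPKM in MOLM-13 and 0, 0 and 0.00939 FPKM in THP-1.

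Chromosome 8 stood apart from every other chromosome. Of its 366 tested genes, 322 (88%) were higher in MOLM-13, 20 higher in THP-1 and 24 not called. On the other chromosomes 16.2% of 9805 genes were higher in MOLM-13 and 22% higher in THP-1. Among the 316 chromosome 8 genes present in both lines, 92.1% were higher in MOLM-13 and 307 had a negative log2 difference. Their median was -1.33, a 2.52-fold higher level in MOLM-13, with quartiles at -1.75 and -1.05. No other autosome had a median beyond 0.34 in size, and the next were chromosomes 1 and 3 at 0.34 and chromosome 13 at -0.32. The genes of chromosome 8 took 7.08% to 7.35% of the summed FPKM of the tested genes in the MOLM-13 libraries and 2.66% to 2.72% in the THP-1 libraries. Of all genes called higher in MOLM-13, 16.8% lay on chromosome 8. DNA copy number was not analysed here.

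**Figure D2:**
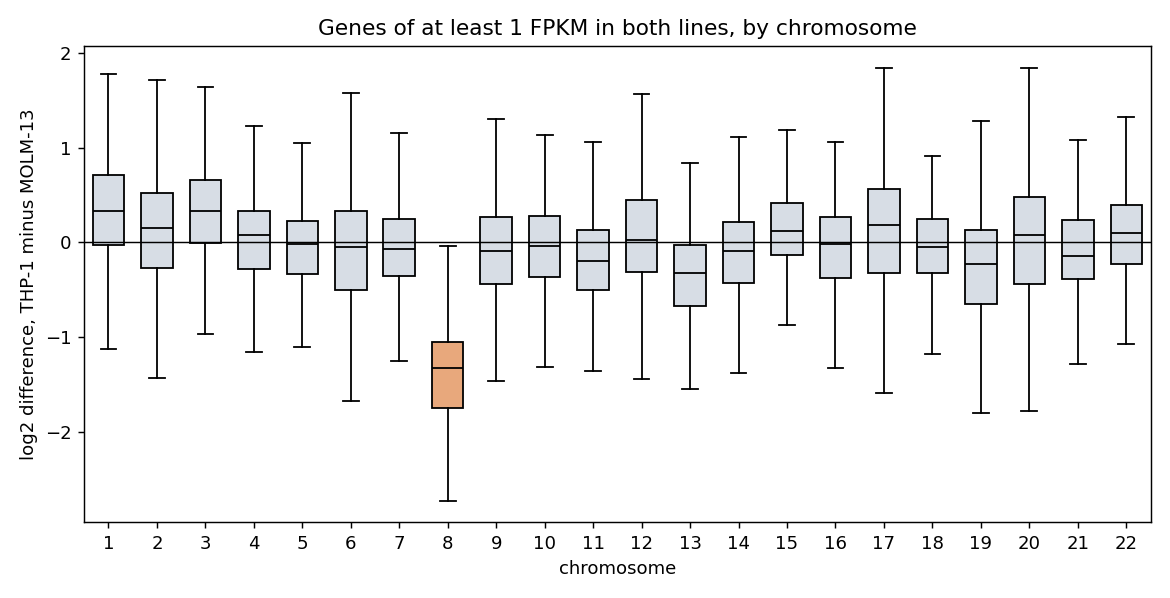
Log2 difference, THP-1 minus MOLM-13, of the 8927 genes of at least 1 FPKM in both lines, 1 box per autosome; the line in a box is the median, the box spans the quartiles, and whiskers reach the farthest gene within 1.5 times the box height. The orange box of chromosome 8 lies below 0 with a median of -1.33, while the medians of all other chromosomes lie between -0.32 and 0.34.

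The same pattern appeared in shorter stretches of other chromosomes when the genes present in both lines were put in order of position and split into 348 blocks of about 25 genes. All 12 blocks of chromosome 8 had medians of -0.58 or lower, from -0.94 in the first block to -1.63 in the ninth. A further 10 blocks elsewhere reached that size in the MOLM-13 direction, among them the first 4 blocks of chromosome 6 (292487 to 31511124), 2 blocks of the long arm of chromosome 19 (48270081 to 50490871), 2 blocks of the short arm of chromosome 20 (3146519 to 21246622), a block of chromosome 13 (27620743 to 40771190) and a block of chromosome 17 (7858003 to 15684311). In the THP-1 direction 12 blocks reached 0.58, and 10 of these were on chromosome 1. Adjoining blocks of chromosome 1 had the highest medians of the genome, 1.55 from INPP5B to ZFP69 (37860697 to 40496343) and 1.69 from EXO5 to ARTN (40508767 to 43937240). In the latter, 22 of 25 genes were higher in THP-1, including CDC20, the activator of the anaphase-promoting complex, which was 83.2, 64.6 and 62.2 FPKM in MOLM-13 and 274, 236 and 230 FPKM in THP-1. The boundaries of such stretches could be abrupt: the fourth block of chromosome 6 had a median of -0.63 and the next one, from 31530226, a median of 0.20.

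**Figure D3:**
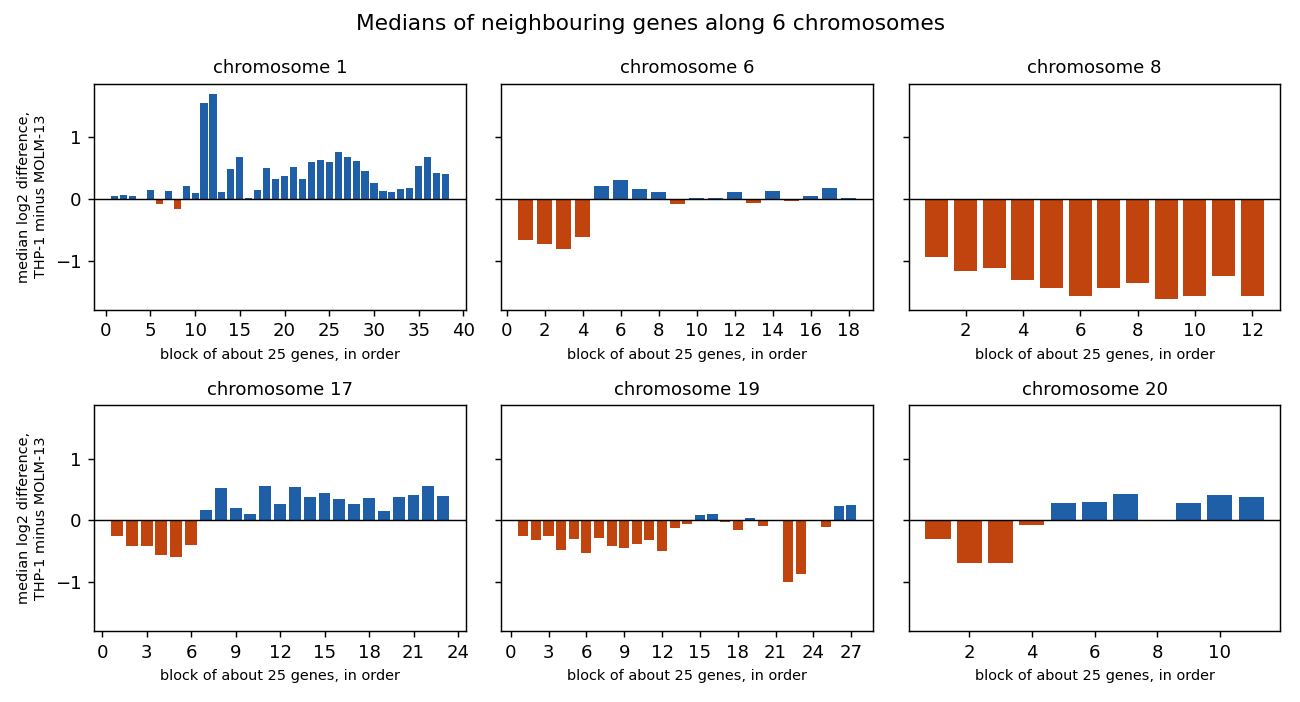
Median log2 difference, THP-1 minus MOLM-13, of successive blocks of about 25 neighbouring genes present in both lines, along chromosomes 1, 6, 8, 17, 19 and 20; blue bars are higher in THP-1 and orange bars higher in MOLM-13. All bars of chromosome 8 point down, 2 adjoining bars of chromosome 1 exceed 1.5, and the sign changes after the fourth block of chromosome 6 and the sixth of chromosome 17.

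Genes near 0 in 1 line also lay side by side. Runs of at least 3 neighbouring tested genes with means under 0.1 FPKM were found 6 times for MOLM-13 and 0 times for THP-1. Such means were far more frequent in MOLM-13, with 320 of the genes tested against 37 in THP-1. The genes of the runs all reached the minimum in THP-1 alone. Of the 6 runs, 4 were on chromosome 19 and consisted almost entirely of zinc finger genes. The first, from 19900946 to 20950697, held ZNF93 (0.0319 FPKM in MOLM-13 and 10.02 FPKM in THP-1), ZNF737, ZNF66 and ZNF85 (0.00657 and 3.62 FPKM). The second, from 21804946 to 23395471, held ZNF43, ZNF724 and ZNF91 (0.00549 and 3.30 FPKM). The run on chromosome 3, from 44555193 to 44660791, held ZKSCAN7, ZNF660, ZNF197, ZNF35 and a read-through transcript of ZNF660 and ZNF197, whose reads cannot be separated from theirs. The only run without a zinc finger gene was on chromosome 6, from 104937026 to 105180014, with LIN28B, which encodes a repressor of let-7 microRNAs (0.0300 FPKM in MOLM-13 and 12.6 FPKM in THP-1), BVES and POPDC3.

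KRAB zinc finger proteins are a large family of DNA-binding repressors, many of them clustered on chromosome 19 and directed at transposable elements; ZNF91 and ZNF93 are known to silence families of retrotransposons. The genes named ZNF were counted as a group after the runs had been seen. Of 355 such genes tested, 136 (38.3%) were higher in THP-1 and 41 (11.5%) higher in MOLM-13, against 21.4% and 18.8% of all genes tested. A mean under 0.1 FPKM was found for 40 of them in MOLM-13 and 0 in THP-1, against 320 and 37 of all genes tested. Among the 262 ZNF genes present in both lines the shares were 22.5% and 11.8%, against 15.8% and 17.4% of all genes of that level. On chromosome 19, 80 of 170 ZNF genes were higher in THP-1 and 17 higher in MOLM-13, while of all chromosome 19 genes tested 18.9% were higher in THP-1 and 27.6% in MOLM-13. The 170 include genes that reached 1 FPKM in THP-1 only, and of all such genes 93.7% were called. Among the 106 ZNF genes of chromosome 19 present in both lines, 25 were higher in THP-1, 12 higher in MOLM-13 and 69 not called, with a median log2 difference of 0.14.

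The 250 bases before the start of ZNF93, ZNF85 and ZNF91 are shown because the genes were near 0 together in MOLM-13 and lie in the first and second runs. The sequences are from RefSeq (GRCh38.p14), on chromosome 19 at chr19:19900696-19900945 on the plus strand, chr19:20923001-20923250 on the plus strand and chr19:23395472-23395721 on the minus strand. Capitals mark CCAAT or its reverse complement ATTGG, the box bound by the factor NF-Y.
ZNF93: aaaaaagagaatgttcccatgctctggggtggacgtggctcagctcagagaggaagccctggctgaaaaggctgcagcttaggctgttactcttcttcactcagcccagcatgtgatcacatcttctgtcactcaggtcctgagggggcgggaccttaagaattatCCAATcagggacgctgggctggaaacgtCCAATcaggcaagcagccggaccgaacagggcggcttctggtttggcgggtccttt
ZNF85: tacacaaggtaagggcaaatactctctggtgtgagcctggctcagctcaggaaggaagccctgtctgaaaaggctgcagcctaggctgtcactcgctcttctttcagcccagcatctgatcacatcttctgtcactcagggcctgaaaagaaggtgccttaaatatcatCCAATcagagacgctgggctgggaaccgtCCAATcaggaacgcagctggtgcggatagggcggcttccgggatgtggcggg
ZNF91: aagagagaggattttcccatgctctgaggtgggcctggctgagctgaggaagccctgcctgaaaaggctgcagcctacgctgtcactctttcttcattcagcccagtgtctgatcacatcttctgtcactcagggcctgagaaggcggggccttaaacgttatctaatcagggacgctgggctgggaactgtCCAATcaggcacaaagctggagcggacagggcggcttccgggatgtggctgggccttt
In global alignments these windows were 77.8% to 83.1% identical to each other, and 47.6% to 48.9% identical to the window of CISH, a gene of another chromosome. A CCAAT or ATTGG was present in 32% of the 35116 promoter windows of the same length, so its presence does not set these genes apart.

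Of 12 class II genes listed, 8 were tested, and the 3 present in both lines were HLA-DRA, HLA-DMA and CD74. HLA-DRA, the invariant alpha chain of HLA-DR, was 70.9, 59.5 and 59.2 FPKM in THP-1 and 3.64, 2.14 and 3.38 FPKM in MOLM-13, 20.7-fold higher. HLA-DMA, which helps to load peptides, was 8.23, 7.52 and 7.66 FPKM against 2.49, 2.58 and 2.56 FPKM. Both were called higher in THP-1. The 5 class II genes that reached 1 FPKM in THP-1 alone were HLA-DRB1, with 42.5, 43.1 and 39.9 FPKM against 0.486, 0.166 and 0.589 FPKM, and HLA-DRB5, HLA-DPA1, HLA-DPB1 and HLA-DQB1. HLA-DRB5 had 14 FPKM (SD 0.237) as its mean in THP-1 and was listed at 0 in 2 of the 3 MOLM-13 libraries. The HLA-DRB genes are near-identical copies and differ between individuals, so the division of reads among them is uncertain.

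Other genes of the same pathway were not called. CD74, the invariant chain that escorts class II molecules, was 58.0, 70.2 and 68.0 FPKM in MOLM-13 and 70.9, 76.5 and 74.5 FPKM in THP-1, a log2 difference of 0.18 that was not called. CIITA, the coactivator of the class II promoters, was below the minimum and not tested, at 0.257, 0.242 and 0.254 FPKM in MOLM-13 and 0.275, 0.269 and 0.218 FPKM in THP-1. HLA-DMB was also below the minimum, at 0.521 and 0.378 FPKM. The block of chromosome 6 in which HLA-DRA lies had a median of 0.30, far less than the differences of these genes.

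The upstream windows of HLA-DRB1, HLA-DPB1 and CD74 are shown because the first and second genes differed between the lines and the third did not. They are from RefSeq (GRCh38.p14) at chr6:32589849-32590098 on the minus strand, chr6:33075740-33075989 on the plus strand and chr5:150412911-150413160 on the minus strand. Capitals mark each CCAAT or ATTGG, the letters that the Y box of class II promoters holds.
HLA-DRB1: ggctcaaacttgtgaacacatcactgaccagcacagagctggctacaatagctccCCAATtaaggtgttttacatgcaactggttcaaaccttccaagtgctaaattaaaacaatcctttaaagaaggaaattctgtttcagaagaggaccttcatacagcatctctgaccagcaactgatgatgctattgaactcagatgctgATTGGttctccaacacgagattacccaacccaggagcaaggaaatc
HLA-DPB1: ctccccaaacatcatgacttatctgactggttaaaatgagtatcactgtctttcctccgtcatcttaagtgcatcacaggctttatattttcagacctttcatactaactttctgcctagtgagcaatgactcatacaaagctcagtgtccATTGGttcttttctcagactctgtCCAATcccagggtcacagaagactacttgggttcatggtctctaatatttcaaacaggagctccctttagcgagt
CD74: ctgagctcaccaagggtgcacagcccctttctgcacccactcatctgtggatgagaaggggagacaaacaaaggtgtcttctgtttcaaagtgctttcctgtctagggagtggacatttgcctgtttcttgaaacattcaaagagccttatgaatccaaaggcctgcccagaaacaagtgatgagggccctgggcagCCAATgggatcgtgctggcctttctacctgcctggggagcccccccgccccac
All 3 windows held these letters, at positions -195 and -46, -99 and -75, and -53 from the transcript start. They were searched for by letters alone, and which match is a Y box was not tested. A match was present in 32% of the 35116 promoter windows. Here it is common to the gene that did not differ and the genes that did.

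Of 13 genes of the class I pathway present in both lines, 5 were higher in THP-1, 2 higher in MOLM-13 and 6 not called, against 15.8% and 17.4% of all genes of that level higher in THP-1 and in MOLM-13. HLA-B, a peptide-presenting heavy chain, was 189, 244 and 233 FPKM in THP-1 and 86.1, 79.5 and 80.6 FPKM in MOLM-13, 2.70-fold higher. B2M, the light chain shared by class I molecules, was 819, 987 and 982 FPKM against 445, 444 and 476 FPKM. TAP2, a subunit of the peptide transporter, and PSMB9, a subunit of the immunoproteasome, were 2.94-fold and 2.93-fold higher. HLA-C and HLA-E went the other way, 1.53-fold and 2.02-fold higher in MOLM-13, and lie in the block of chromosome 6 with a median of -0.63. The log2 difference of HLA-C was -0.50 without the first THP-1 library and -0.54 with libraries scaled to a common sum, both below the size for a call. HLA-B lies in the same block and was higher in THP-1. ERAP2, a peptide-trimming aminopeptidase, reached 1 FPKM in MOLM-13 alone, with 5.23, 5.92 and 6.60 FPKM against 0.405, 0.567 and 0.494 FPKM in THP-1. HLA alleles differ from the reference, and the effect of this on the counted reads was not tested.

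HOX genes divided by their place in the HOXA cluster, which is numbered in order of position. HOXA9, the central HOX gene of MLL-rearranged leukemia, was 48.0, 56.9 and 48.2 FPKM in MOLM-13 and 17.9, 19.5 and 15.3 FPKM in THP-1, 2.90-fold higher (log2 difference -1.53 ± 0.10 SE). HOXA7 was 8.33, 8.92 and 6.88 FPKM against 1.12, 1.55 and 1.68 FPKM. HOXA3, HOXA4, HOXA5 and HOXA6 were also higher in MOLM-13 and reached 1 FPKM there alone. HOXA10 (21.5 and 25.5 FPKM) and HOXA11 (9.54 and 9.27 FPKM) were not called. HOXA13, at the far end, was 10.6, 9.86 and 11.2 FPKM in THP-1 and 2.64, 3.78 and 3.21 FPKM in MOLM-13. Along the cluster the members up to HOXA9 that were tested were thus higher in MOLM-13, the next ones were not called and the last was higher in THP-1.

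Of the HOXB genes listed, HOXB4 and HOXB7 were tested, and they reached the minimum in THP-1 alone. HOXB4 was 1.95, 2.15 and 1.86 FPKM and HOXB7 1.34, 1.87 and 2.26 FPKM in THP-1, and each was listed at 0 in 2 of 3 MOLM-13 libraries. Of the cofactors, MEIS1 was 10.7, 11.2 and 9.65 FPKM in MOLM-13 and 2.63, 2.96 and 2.77 FPKM in THP-1, 3.77-fold higher, while PBX3 was 25.6 and 26.5 FPKM and was not called. Of 15 genes of the MLL complex and fusion partners, all present in both lines, 2 were higher in THP-1, 1 higher in MOLM-13 and 12 not called, where 33.2% of all genes of that level were called. KMT2A, the gene of MLL, was 2.88 FPKM (SD 0.178) in MOLM-13 and 4 FPKM (SD 0.163) in THP-1, and its log2 difference of 0.46 was below the size for a call. MLLT3, a common fusion partner, was 1.23 FPKM in both. The values count normal and rearranged transcripts together. PSIP1, which tethers the MLL complex to chromatin, was 2.26-fold higher in THP-1, and DOT1L (16.7 and 16.6 FPKM) and MEN1 (12.2 and 9.85 FPKM) were not called.

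**Figure D4:**
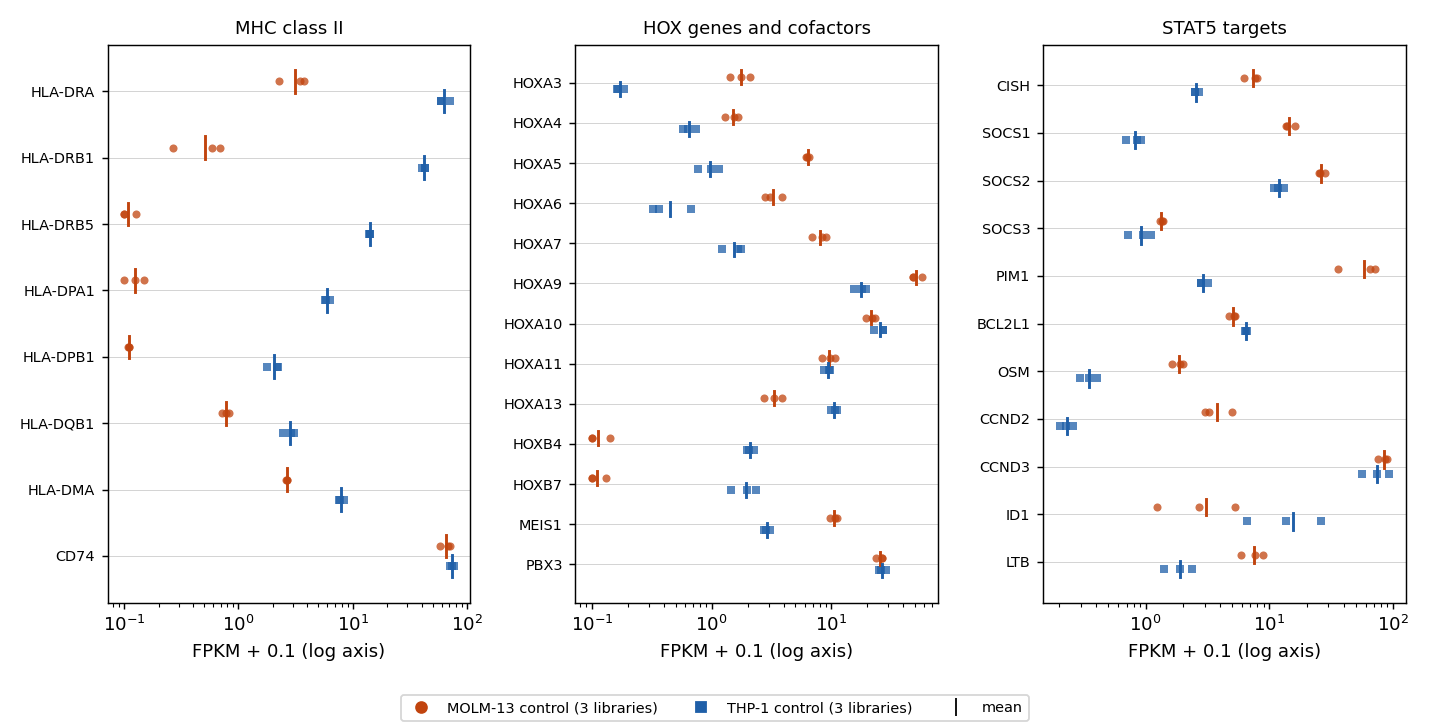
FPKM plus 0.1 on a log axis for the tested members of the MHC class II, HOX and STAT5 target lists, 1 row per gene, with orange circles for the 3 MOLM-13 control libraries, blue squares for the 3 THP-1 control libraries and a vertical bar at each mean. The squares lie to the right for the class II genes except CD74, where the groups nearly touch, the HOXA rows change side between HOXA9 and HOXA13, and PIM1, SOCS1 and CCND2 are the STAT5 target rows with the widest gap.

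Receptors of growth factors differed gene by gene. FLT3 was 76.2, 92.1 and 96.4 FPKM in MOLM-13 and 13.2, 17.8 and 16.1 FPKM in THP-1, 5.62-fold higher (log2 difference -2.49 ± 0.12 SE, limma, adjusted p = 3.82e-07). It lies on chromosome 13 (28003274 to 28100576) in the block with a median of -0.64, and the values do not separate the duplicated from the normal transcript. KIT, the stem cell factor receptor, was near 0 in MOLM-13 at 0.121, 0.0417 and 0.0839 FPKM and was 1.93, 1.61 and 1.21 FPKM in THP-1. CSF1R, the receptor that drives monocyte survival, was 4.30, 4.47 and 5 FPKM in MOLM-13 and 15.6, 17 and 20.2 FPKM in THP-1, 3.83-fold higher. CSF3R, its counterpart for granulocytes, was 24.5, 27.5 and 27.4 FPKM in MOLM-13 and 7.90, 11.6 and 12.7 FPKM in THP-1. IL6R was 2.85-fold higher in THP-1 and lies in a block of chromosome 1 with a median of 0.59. IL7R was 3.34, 2.76 and 4.25 FPKM in MOLM-13 and 0.197, 0.201 and 0.251 FPKM in THP-1. The interferon receptors IFNGR1, IFNGR2 and IFNAR1 were not called.

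Of 7 STAT5 target genes present in both lines, 4 were higher in MOLM-13 and 1 higher in THP-1, where the shares of all genes of that level were 17.4% and 15.8%. PIM1, a survival kinase, was 35.8, 71.7 and 65.5 FPKM in MOLM-13 and 3.07, 2.70 and 2.71 FPKM in THP-1, with the first MOLM-13 library well below the others yet above every THP-1 library. CISH, a feedback inhibitor of cytokine receptors, was 6.10, 7.63 and 7.91 FPKM against 2.43, 2.60 and 2.39 FPKM. SOCS2, a related inhibitor, was 25.1, 28.0 and 25.7 FPKM against 13.1, 11.7 and 10.9 FPKM. SOCS1, which reached 1 FPKM in MOLM-13 alone, was 13.8, 15.9 and 13.4 FPKM against 0.814, 0.591 and 0.748 FPKM. LTB was 4.15-fold higher in MOLM-13, and OSM reached 1 FPKM there alone with 1.53, 1.81 and 1.90 FPKM. BCL2L1 and CCND3 were not called. ID1, the member higher in THP-1, varied within both lines, from 1.14 to 5.16 FPKM in MOLM-13 and from 6.50 to 26.0 FPKM in THP-1.

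The window before CISH is shown because it holds the motif TTCNNNGAA, the palindrome that STAT5 binds, 4 times. The sequence is from RefSeq (GRCh38.p14) at chr3:50611775-50612024 on the minus strand, and capitals mark the 4 matches.
CISH: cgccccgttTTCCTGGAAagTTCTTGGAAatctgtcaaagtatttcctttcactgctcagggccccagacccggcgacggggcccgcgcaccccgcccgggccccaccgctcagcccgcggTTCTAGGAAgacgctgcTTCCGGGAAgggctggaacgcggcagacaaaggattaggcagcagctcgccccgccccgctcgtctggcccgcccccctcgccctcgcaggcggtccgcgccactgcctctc
The matches start at positions -241, -230, -129 and -112 from the transcript start. At least 1 match was found in 6.57% of the 35116 promoter windows and at least 4 in 5 windows (0.0142%). A match is a run of letters and does not show that STAT5 is bound in these cells. Of the other STAT5 target genes tested whose windows were on hand, LTB held 1 match and PIM1, SOCS1, SOCS3, CCND3, ID1 and BCL2L1 held 0.

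NRAS, a RAS gene mutated in THP-1 cells, was 60.4, 51.7 and 50.6 FPKM in THP-1 and 25.1, 25 and 24.9 FPKM in MOLM-13, 2.17-fold higher. Feedback genes of the MAPK pathway, which RAS activates, went both ways. Of 8 present in both lines, 3 were higher in THP-1, 2 higher in MOLM-13 and 3 not called. The shares of all genes of that level were 15.8% higher in THP-1 and 17.4% higher in MOLM-13. The phosphatase gene DUSP6 was 9.80, 9.93 and 7.09 FPKM in THP-1 and 3.43, 6.06 and 4.53 FPKM in MOLM-13. SPRY2 (2.02-fold) and SPRED2 (1.97-fold), inhibitors of the pathway, were higher in THP-1 as well. ETV4 and FOSL1, transcription factors downstream of it, were 1.69-fold and 1.67-fold higher in MOLM-13. IER3, an immediate early gene, reached the minimum in MOLM-13 alone, and its first library had 2.93 FPKM against 8.87 and 8.82 FPKM in the others.

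Of 16 monocyte and macrophage markers present in both lines, 7 were higher in THP-1, 4 higher in MOLM-13 and 5 not called, against 15.8% and 17.4% of all genes of that level higher in each. S100A8, a subunit of calprotectin, was 77.9, 42.4 and 43.9 FPKM in THP-1 and 6.30, 2.59 and 5.05 FPKM in MOLM-13. S100A9, its partner, was 15.2-fold higher in THP-1. CD68, a lysosomal marker of macrophages, was 2.28-fold and the fractalkine receptor CX3CR1 4.07-fold higher in THP-1. ANPEP, the aminopeptidase CD13, reached 1 FPKM in THP-1 alone, with 15.7, 13.1 and 13.1 FPKM against 0.543, 0.248 and 0.380 FPKM in MOLM-13. In the other direction, LYZ, the gene of lysozyme, was 3106, 1873 and 2440 FPKM in MOLM-13 and 755, 988 and 1354 FPKM in THP-1. CD33 was 21.3, 22.2 and 20.7 FPKM against 6.01, 5.95 and 5.38 FPKM, 3.70-fold higher in MOLM-13. CD86, a costimulatory ligand of T cells, reached 1 FPKM in MOLM-13 alone, with 2.58, 3.45 and 4.23 FPKM against 0.291, 0.147 and 0.167 FPKM. CD4, CD36, CCR2 and LILRB4 were not called. S100A8 and S100A9 lie in a block of chromosome 1 with a median of 0.62.

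Of 12 primary granule genes present in both lines, which mark promyelocytes and early monocytes, 6 were higher in MOLM-13 and 3 higher in THP-1, where the shares of all genes of that level were 17.4% and 15.8%. PRTN3, the gene of proteinase 3, was 2804, 2023 and 2212 FPKM in MOLM-13 and 1193, 1257 and 1163 FPKM in THP-1. AZU1 was 2.07-fold and RNASE2 2.31-fold higher in MOLM-13. BPI, a bactericidal protein gene, reached 1 FPKM in MOLM-13 alone, with 7.67, 8.87 and 7.31 FPKM against at most 0.212 FPKM in THP-1. ELANE, the gene of neutrophil elastase, went the other way with 605, 537 and 540 FPKM in THP-1 and 353, 284 and 313 FPKM in MOLM-13. CTSG was higher in THP-1 as well but spread from 589 to 1514 FPKM among its libraries. MPO, the gene of myeloperoxidase, was 20.6 and 20.2 FPKM and was not called.

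Of 16 myeloid transcription factors present in both lines, 4 were higher in THP-1, 3 higher in MOLM-13 and 9 not called, against 33.2% called of all genes of that level. SPI1 (55.5 and 39.9 FPKM), CEBPA (181 and 208 FPKM), IRF8 (170 and 163 FPKM), GFI1 and RUNX1 were among those not called. RUNX2, which reached 1 FPKM in MOLM-13 only, was 17, 16.3 and 17.7 FPKM in MOLM-13 and 0.775, 1.14 and 1.05 FPKM in THP-1. MEF2C, a progenitor factor, was 3.36-fold and ID2 2.25-fold higher in MOLM-13. CEBPE, a factor of granule formation, was 6.70, 5.34 and 6.09 FPKM in THP-1 and 1.22, 1.64 and 1.26 FPKM in MOLM-13, 4.41-fold higher. Of 7 stem and progenitor genes present in both lines 1 was higher in THP-1 and 2 were higher in MOLM-13. By comparison, 15.8% of all genes of that level were higher in THP-1 and 17.4% higher in MOLM-13. MYB (104 and 99.2 FPKM), GATA2 and LMO2 were not called, and CD34 was listed at 0 in 5 of the 6 libraries.

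Of 17 adhesion genes present in both lines, 5 were higher in THP-1 and 6 higher in MOLM-13, against 15.8% and 17.4% of all genes of that level. ITGAL, the alpha chain of the integrin LFA-1, was 121, 127 and 127 FPKM in MOLM-13 and 9.37, 13.9 and 13.6 FPKM in THP-1, 10.2-fold higher. ITGB2, the beta chain with which it pairs, was 82.7, 77.1 and 75.4 FPKM in MOLM-13 and 127, 155 and 154 FPKM in THP-1. ITGA4 and ITGB1, which together form VLA-4, were both higher in THP-1, by 2.09-fold and 2.52-fold. ICAM3 (3.44-fold), SELPLG, the ligand of P-selectin (2.56-fold), and CD44, the hyaluronan receptor (2.83-fold), were higher in MOLM-13.

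Of 15 innate sensor genes present in both lines, 12 were not called, where 33.2% of all genes of that level were called. Among the 12 were TLR2 (6.12 and 6.35 FPKM), MYD88, NLRP3, CASP1, CGAS and STING1 (47.2 and 38.9 FPKM). IFI16, a DNA sensor, was 3.78, 5.47 and 4.09 FPKM in THP-1 and 0.859, 1.65 and 1.42 FPKM in MOLM-13. IFI16 lies in a block of chromosome 1 with a median of 0.68. Of the cytokine genes, TNF was 19.3, 24.8 and 17.5 FPKM in MOLM-13 and 6.12, 4.58 and 3.46 FPKM in THP-1, 4.35-fold higher. IL1RN, the antagonist of interleukin 1, was 1.70-fold higher in THP-1, and 12 of 22 cytokine genes were below the minimum in both lines, with IL6 and IL10 listed at 0 throughout.

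Of 15 interferon-stimulated genes present in both lines, 4 were higher in THP-1, 1 higher in MOLM-13 and 10 not called. Among all genes of that level 15.8% were higher in THP-1 and 17.4% higher in MOLM-13. MX2, an antiviral GTPase, was 11.5, 10.2 and 9.78 FPKM in THP-1 and 0.839, 1.25 and 1.05 FPKM in MOLM-13. IFI6 was 8.36, 35.4 and 9.53 FPKM in THP-1 and 0.818, 1.23 and 1.02 FPKM in MOLM-13, with the second THP-1 library far above the others. ISG15, STAT2 and BST2 were not called. XAF1 was 2.15-fold higher in MOLM-13.

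Of 11 genes of phagocytosis and the NADPH oxidase present in both lines, 5 were higher in THP-1 and 2 higher in MOLM-13, against 15.8% and 17.4% of all genes of that level. FCER1G, the signalling gamma chain of Fc receptors, was 125, 120 and 106 FPKM in THP-1 and 8.38, 9.91 and 5.45 FPKM in MOLM-13, 14.8-fold higher. FCER1G lies in a block of chromosome 1 with a median of 0.60. TREM2, a lipid receptor of macrophages, was 27.3, 30.7 and 32.8 FPKM against 4.39, 5.43 and 4.16 FPKM. TYROBP, the adaptor through which TREM2 signals, was 112 and 144 FPKM and was not called. Of the oxidase subunits, NCF4 (1.71-fold) and NCF1 (2.04-fold) were higher in MOLM-13 and CYBA was not called. NCF1 has near-identical pseudogenes, so its value is uncertain.

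KIT, ALDH3A1 and CALML6 were followed by PCR in treated cells, and their untreated levels were low. ALDH3A1, an aldehyde dehydrogenase, was 0.209, 0.349 and 0.331 FPKM in MOLM-13 and 0.201, 0.136 and 0.165 FPKM in THP-1, and CALML6, a calmodulin-like gene, was at most 0.0467 FPKM in any library. Both were below the minimum and were not tested. KIT, described above, was tested, and the reference gene GAPDH, at 1661 and 1542 FPKM, was not called.

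Of 17 oxidative stress genes controlled by NRF2 and present in both lines, 4 were higher in THP-1, 1 higher in MOLM-13 and 12 not called. Among all genes of that level 15.8% were higher in THP-1 and 17.4% higher in MOLM-13. NQO1, a quinone reductase, was 26.7, 23.4 and 22.9 FPKM in THP-1 and 8.06, 5.78 and 4.93 FPKM in MOLM-13, 3.89-fold higher. GCLM, the modifier of glutathione synthesis, was 2.28-fold and ME1, a source of NADPH, 2.12-fold higher in THP-1. GSR, which regenerates glutathione, was 48.5 and 21.9 FPKM and 2.22-fold higher in MOLM-13. It lies on chromosome 8. HMOX1, TXNRD1, SRXN1 and FTH1 were not called.

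Of the genes that take up, activate or degrade cytarabine, the uptake carrier SLC29A1 (40.7 and 52.2 FPKM) and the activating kinase DCK (28.7 and 35.2 FPKM) were not called. CDA, the deaminase that inactivates the drug, was 3.30, 3.33 and 3.18 FPKM in THP-1 and 0.861, 0.296 and 0.682 FPKM in MOLM-13, and reached the minimum in THP-1 alone. SAMHD1, which cleaves its triphosphate, was 33.9, 49.8 and 58.1 FPKM in THP-1 and 23.2, 22.2 and 26.2 FPKM in MOLM-13. The second carrier SLC29A2 was 4.31-fold higher in MOLM-13. RRM2 was 1.998-fold and the exporter ABCC4 1.79-fold higher in MOLM-13.

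Of 30 proliferation genes, all present in both lines, 24 were not called, 3 were higher in THP-1 and 3 higher in MOLM-13, where 33.2% of all genes of that level were called, and the median log2 difference was 0.23. MKI67 was 23.8, 23.3 and 23.4 FPKM in MOLM-13 and 30.1, 30.6 and 29.6 FPKM in THP-1, a difference larger than the spread but below the size for a call. The genes higher in MOLM-13 were MCM4, on chromosome 8, PCNA, in the lower stretch of chromosome 20, and RRM2. MCM4 was 175 and 78.7 FPKM, while its partners in the replicative helicase MCM5, MCM6 and MCM7 were not called.

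Of 39 ribosomal protein genes, all present in both lines, 11 were higher in MOLM-13, 2 higher in THP-1 and 26 not called. By comparison, 17.4% of all genes of that level were higher in MOLM-13 and 15.8% higher in THP-1. The log2 difference was negative for 31 of the 39, and the median was -0.32. Without the genes on chromosome 8, 7 of 35 were higher in MOLM-13 and 2 higher in THP-1, with a median of -0.29. All 4 members on chromosome 8 were higher in MOLM-13, among them RPL7 (2127, 2283 and 2284 FPKM against 569, 526 and 561 FPKM) and RPL30 (2.64-fold), and 3 of the 11 were on chromosome 19. Of these, RPL18 lies in the block of that chromosome with a median of -0.99. Ribosomal protein genes have many processed pseudogenes, so reads could be divided between copies. Of 18 glycolytic genes present in both lines, 3 were higher in each line and 12 not called, near the 33.2% called of all genes of that level. The glucose carrier gene SLC2A1 was 2.27-fold higher in THP-1 and lies in the block of chromosome 1 with a median of 1.69. SLC2A3, another carrier gene, was 11.5-fold higher in MOLM-13, with 11.1 FPKM in the first MOLM-13 library and 26.2 and 26.7 FPKM in the others.

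Markers of other blood lineages were low, with a few exceptions. CD79B, a chain of the B cell receptor complex, was 8.15, 9.72 and 8.39 FPKM in THP-1 and 0.150, 0.189 and 0.0875 FPKM in MOLM-13, whereas MS4A1, another B cell gene, was listed at 0 in all libraries. CD3D, a chain of the T cell receptor complex, was 1.53, 3.79 and 3.18 FPKM in MOLM-13 and listed at 0 in THP-1, whereas CD3E was at most 0.0264 FPKM in any library. NKG7, a gene of cytotoxic granules, was 29.6, 26.7 and 26.1 FPKM in MOLM-13 and 6.60, 4.15 and 3.56 FPKM in THP-1. GP9, a platelet glycoprotein gene, had 1.28 FPKM (SD 0.595) in THP-1 and 0.0476 FPKM in MOLM-13, and the hemoglobin genes were at most 0.209 FPKM in any library. The summed level of the 16 lymphoid markers was 29.9 to 31.5 FPKM in MOLM-13 and 14.1 to 16.8 FPKM in THP-1, most of it NKG7 in the former.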

How the data were processed

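mRNA-seq was performed by the authors on poly(A) RNA of THP-1 and MOLM-13 cells with stranded libraries and paired-end reads. The authors deposited FPKM per gene and library. The submitters' processing notes name Trimmomatic, HISAT2, Cufflinks, HTSeq and hg38, without versions. The annotation and the strand setting of the counting are not given in the sources used here. The count model of the study was not applied, since FPKM are not counts. The 6 control libraries were grouped by their titles.

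The FPKM were used as deposited. Genes were placed with RefSeq genes of GRCh38.p14 (18880 rows by symbol, 702 by synonym, 448 not placed), and 27 rows whose names a spreadsheet had turned into dates were left out. Genes with a mean of at least 1 FPKM in either line and off X and Y were tested on log2(FPKM + 0.1) with limma 3.58.1 in R 4.3.3 (eBayes with a mean-variance trend, Benjamini-Hochberg). The log scale with this pseudocount understates the difference of low genes. Folds are ratios of mean FPKM and are given only where neither line is listed at 0. The smallest two-sided exact permutation p for 3 against 3 libraries is 0.1, so single genes were not tested that way. Values of 0 can be failed estimates. FPKM give shares of a library, so a large group of genes that is higher in a line lowers the rest. The fit was tested on simulated data.

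Genes named were the 10 highest with a mean under 0.1 FPKM in the other line, the 10 with the largest difference each way among non-overlapping genes present in both lines, fixed genes such as FLT3 and KIT, members of 26 gene lists, and runs of neighbouring genes near 0. The comparison and the lists were chosen with earlier results of these data known, and blocks and ZNF genes were counted after values had been seen. Lists were described without a set test. Some genes that these rules name, and a list, are not reported here. Alternatives covered the pseudocount, the filter, 3 rescalings, the trend, the replicate block, the chromosomes kept, the size for a call and each library left out. Promoter windows were aligned with Biopython 1.88, and figures were drawn with matplotlib 3.10.9.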

Additional observations from a re-analysis of the deposited data

How the results depend on the processing

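No gene called both in the comparison and in an alternative run changed direction between them. Calls that an alternative lost were not counted for direction. With a pseudocount of 1, 85.3% of the 4092 calls were kept, and 56.2% reached a log2 difference of at least 1. Genes higher in THP-1 numbered 3406 with no filter on low values, 1242 with a minimum mean of 5 FPKM in either line, and 1231 when a log2 difference of at least 1 was required, against 2179. The counts higher in MOLM-13 were 2262 with no filter and 1277 at 5 FPKM, against 1913, so at 5 FPKM the larger count was in the MOLM-13 direction. At the required log2 difference of 1, 1069 genes were higher in MOLM-13, and among genes present in both lines 529 were higher in THP-1 and 771 higher in MOLM-13. With 1 library left out at a time the counts were 2146 to 2270 higher in THP-1 and 1890 to 1921 higher in MOLM-13, and 1381 to 1511 and 1542 to 1564 among genes present in both lines. The other settings, namely pseudocounts of 1 and 0.01, 3 rescalings, no trend, genes of X and Y kept and genes of chromosome 8 left out, stayed within 1.5 times the counts. Among genes present in both lines, where 1410 were higher in THP-1 and 1553 in MOLM-13, the larger count turned to THP-1 with a common sum per library (1739 against 1342), with centring on the median (1521 against 1476) and without chromosome 8 (1407 against 1262). Leaving out chromosome 8 was chosen after seeing the data.

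Correlations of the deviations of same-numbered libraries were 0.182, 0.0762 and 0.0902, and those of different-numbered libraries ran from -0.126 to 0.0519. Each same-numbered value was thus small but above every different-numbered one. Whether the replicate numbers pair the libraries was not tested. With the replicate block, 2182 genes were higher in THP-1 and 1923 higher in MOLM-13, and 1411 and 1557 among genes present in both lines.

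FPKM carry no depth, so the error of low values is unknown, and 3 libraries of a line limit the precision of every difference.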
